A study of Mus musculus with 4 samples.

Results

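The genes described here copy the genome and divide the cell. They are 42 genes chosen by name, 19 of DNA replication and 23 of mitosis, out of 30340 genes or targets on the array, and were read from 58 of its 39429 probes. They were measured in keratinocytes, the main cell type of the epidermis, isolated with 0.05% collagenase A from the whole skin of newborn C57BL/6 mice, grown for 3 days and then kept for 48 h with or without 1 mM CaCl2. The cells were of genotype Pla2g2f+/+ or Pla2g2f-/-, the latter without an intact copy of the gene of a secreted phospholipase A2. The labels name no promoter or cell type that would limit the knockout. RNA was pooled from the keratinocytes of 6 mice for each genotype, and every group, a genotype with or without calcium, was hybridised to 1 one-colour array, 4 in all. Differences below therefore carry no p-value and were not repeated in a second culture, and a genotype cannot be told apart from the cell preparation it came in.

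On every array 67.0% to 68.6% of probes were well above background, and no spot was saturated. A scaled signal below is the background-subtracted signal of a probe as a percentage of the 75th percentile of its array. The 4 scaled signals of a gene are always given in the order Pla2g2f+/+ without calcium, Pla2g2f+/+ with calcium, Pla2g2f-/- without calcium and Pla2g2f-/- with calcium, and signals of different genes are not compared because each probe has its own brightness. For members well above background on the 2 arrays compared in the +/+ calcium response, the scanner software's own error of a log2 difference was 0.20 to 0.25. For a difference of 2 responses it was 0.29 to 0.36. The 10 spots of a repeated probe varied by an SD of 0.0555 to 0.0593 log2 within an array, which is spread inside an array and not between cultures. Pla2g2f itself gave 9.82%, 12.1%, 7.28% and 8.64%, still well above background in Pla2g2f-/- cells. Since the labels do not say where the gene was disrupted, this probe is no check of them. All 13 basal keratinocyte markers were well above background on all 4 arrays. Markers of other cell types were present as well, and 9 of 9 matched fibroblast markers, 8 of 9 mast cell markers and 8 of 9 adipocyte markers were well above background on all arrays.

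Before a cell divides, a ring-shaped helicase made of Mcm2 to Mcm7 is loaded on DNA with the help of Cdc6 and Cdt1, and Gins proteins, a primase, DNA polymerase and the sliding clamp Pcna then turn it into a working replication fork. After replication, cyclins A and B with the kinase Cdk1 start mitosis. A checkpoint built on Bub1, Bub1b, Mad2l1 and Ttk holds the chromosomes until all are attached, and kinesin motors work in the spindle and in cytokinesis. Replication genes are commonly switched on by E2F factors as cells leave G1, and mitotic genes later by the MuvB complex together with B-Myb and FoxM1. MuvB binds a promoter element called the cell cycle genes homology region (CHR), and as part of the DREAM complex it represses these genes in resting cells. In the epidermis dividing keratinocytes sit in the basal layer, and raised calcium in the medium is the usual signal for cultured keratinocytes to stop dividing and differentiate.

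The promoters of 6 members, picked as textbook genes of E2F or CHR control, are printed to look for the letters on which this division of labour is known to rest. Not every one holds the letters of its class. They are the 250 bases before the start in RefSeq, build GRCm38.p6, read 5′ to 3′ on the gene's own strand, with the searched letters in capitals. The E2F letters were TTCCCGC, or as its variants also TTGGCGC, besides them the form TTCGCGC, together with the form TTGCCGC. The CHR letters were TTTGAA, or its variant form TTCGAA. The third search was for the CCAAT box, spelled as in its name, and every search covered both strands. E2F letters overlap each other where a run such as TTGGCGC is followed by its near mirror image, and an E2F match can share bases with a CCAAT box, as in Ccnb1.
Mcm5, chr8:75109259-75109508, plus strand: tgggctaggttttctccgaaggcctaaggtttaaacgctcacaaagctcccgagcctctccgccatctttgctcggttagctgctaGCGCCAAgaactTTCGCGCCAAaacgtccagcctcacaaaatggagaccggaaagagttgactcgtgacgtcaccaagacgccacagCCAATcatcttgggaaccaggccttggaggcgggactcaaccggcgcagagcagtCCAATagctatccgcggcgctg
Mcm6, chr1:128359706-128359955, minus strand: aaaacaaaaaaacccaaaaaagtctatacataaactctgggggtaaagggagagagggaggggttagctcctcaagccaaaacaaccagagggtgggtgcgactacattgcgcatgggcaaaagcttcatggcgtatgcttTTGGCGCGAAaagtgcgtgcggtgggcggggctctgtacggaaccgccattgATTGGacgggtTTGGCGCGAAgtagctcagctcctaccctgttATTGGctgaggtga
Ccnb1, chr13:100786487-100786736, minus strand: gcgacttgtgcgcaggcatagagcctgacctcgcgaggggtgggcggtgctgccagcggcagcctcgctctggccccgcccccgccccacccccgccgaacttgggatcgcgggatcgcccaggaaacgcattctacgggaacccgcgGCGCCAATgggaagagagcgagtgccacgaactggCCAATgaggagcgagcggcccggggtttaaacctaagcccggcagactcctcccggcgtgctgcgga
Cdk1, chr10:69352913-69353162, minus strand: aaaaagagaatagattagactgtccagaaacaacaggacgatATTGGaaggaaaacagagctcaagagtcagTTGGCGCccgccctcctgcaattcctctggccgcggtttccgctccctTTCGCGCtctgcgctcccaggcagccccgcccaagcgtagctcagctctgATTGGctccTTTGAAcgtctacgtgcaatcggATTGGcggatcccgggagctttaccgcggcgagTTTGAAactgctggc
Plk1, chr7:122159185-122159434, plus strand: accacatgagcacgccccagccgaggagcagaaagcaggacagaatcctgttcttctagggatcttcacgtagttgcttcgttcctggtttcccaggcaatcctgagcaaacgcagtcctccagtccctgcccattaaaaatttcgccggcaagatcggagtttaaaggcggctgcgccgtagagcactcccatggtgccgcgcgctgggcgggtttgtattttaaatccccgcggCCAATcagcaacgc
Top2a, chr11:99024190-99024439, minus strand: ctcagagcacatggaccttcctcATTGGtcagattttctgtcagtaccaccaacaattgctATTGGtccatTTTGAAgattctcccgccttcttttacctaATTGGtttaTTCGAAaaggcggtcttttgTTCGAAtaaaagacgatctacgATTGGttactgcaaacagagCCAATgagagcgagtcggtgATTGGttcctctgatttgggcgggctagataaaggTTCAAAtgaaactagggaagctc
Mcm5 and Mcm6, subunits of the replicative helicase, held 3 and 4 matches to the E2F letters in these bases and none to the CHR letters. Top2a, which untangles DNA for chromosome separation, held the reverse, with 4 CHR matches and no E2F match, and 6 CCAAT boxes. Cdk1 held 2 E2F and 2 CHR matches and 3 CCAAT boxes. Ccnb1, cyclin B1, held 1 E2F match, no CHR match and 2 CCAAT boxes. Plk1, a kinase of mitotic entry, held a CCAAT box in the printed bases and a CHR match 31 bases after its start, which is not printed.

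Over the promoters given by the RefSeq table, 250 bases before to 50 after the start, 32 of the 42 members had an entry. Gins1, Gins2, Mcm4, Pole, Ccne2, Ccna2, Cdc25c, Aurkb, Kif20a and Tpx2 had none. E2F letters were present for 9 of 14 replication members (64.3%) and 3 of 18 mitosis members (16.7%), namely Ccnb1, Cdk1 and Mki67, against 10.9% of all 27025 genes with a promoter. CHR letters were present for 2 of 14 replication members (14.3%), Mcm2 and Mcm7, and 13 of 18 mitosis members (72.2%), against 21.7% of all genes. CCAAT boxes were present for 9 of 14 (64.3%) and 15 of 18 (83.3%), against 41.1%. In the 150 bases nearest the start, 100 before to 50 after, E2F letters were present for 6 of 14 and 1 of 18 members and CHR letters for 1 of 14 and 13 of 18. Letters in a window are a description of the sequence and do not show a bound factor.

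**Figure D1:**
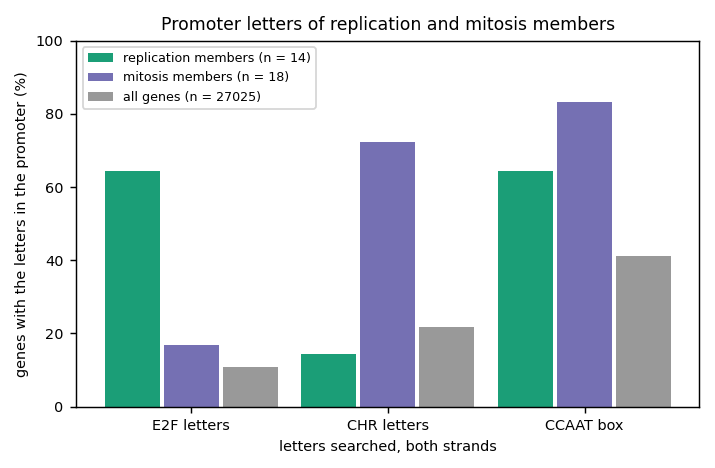
Share of genes (%) whose promoter of 300 bases holds the E2F letters, the CHR letters or a CCAAT box on either strand, for the 14 replication members and 18 mitosis members with a promoter entry and for all 27025 genes with one. E2F letters stand at 64.3% in replication members and 16.7% in mitosis members, and CHR letters at 14.3% and 72.2%.

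Of the 42 members, 32 were well above background on all 4 arrays, 17 of replication and 15 of mitosis. Cdc25c was well above background on 1 array, Nusap1 on 2, and Bub1b and Kif23 on 3. Cdc6, Ccne2, Aurkb, Bub1, Ttk and Kif11 were not well above background on any array and have no comparison below. Among the 32 members on all arrays, the untreated Pla2g2f+/+ array held the highest scaled signal for 25 (78.1%), against 39.8% of all 19225 genes on all arrays. The calcium-treated Pla2g2f-/- array held the highest for 6, Pole, Ccne1, Ccna2, Cdk1, Mki67 and Cenpa, and the calcium-treated Pla2g2f+/+ array for Tpx2. This order was the same when each array was centred on its median gene, with quantile scaling and with normexp background correction (25 and 6 each time). It turned when the arrays were scaled to the basal keratinocyte genes, which put 26 of 32 members and 76.6% of all genes highest on the calcium-treated Pla2g2f-/- array.

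**Figure D2:**
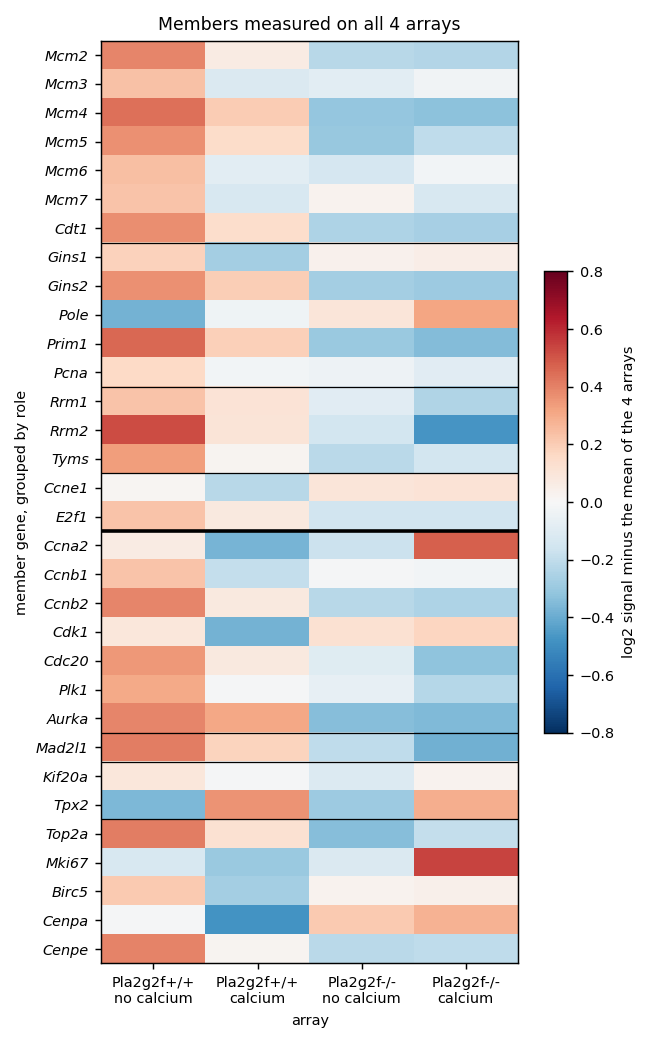
Log2 signal on each of the 4 arrays (columns) minus the mean of the 4 arrays, scaled to the 75th percentile, for the 32 members well above background on all arrays (rows), grouped by role with replication above the thick line. Red is above and blue below the gene's own mean. Most rows are reddest in untreated Pla2g2f+/+ cells, and Mki67 and Ccna2 are reddest in calcium-treated Pla2g2f-/- cells, an order that turns for most rows when arrays are scaled to basal keratinocyte genes.

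The scaling sets the zero of every difference, so members are read against the median gene. Scaling to the basal keratinocyte genes added 0.49 and 0.58 log2 to every calcium response of Pla2g2f+/+ and Pla2g2f-/- cells, 0.33 and 0.43 to the genotype difference without and with calcium, and 0.09 to the difference between responses. Those basal genes were themselves lower with calcium, by a median of −0.47 log2 in Pla2g2f+/+ and −0.58 in Pla2g2f-/- cells on the 75th percentile scale. The position of a gene relative to the median gene is not moved by such a shift.

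The first comparison asks what calcium does to these genes in cells that keep Pla2g2f. In Pla2g2f+/+ cells replication and mitosis members were lower with calcium, by little each and by similar amounts. The median log2 difference of the 34 members compared was −0.27 (1.20-fold lower), against −0.08 for all 21127 genes compared, a distance of −0.19 that was −0.16 to −0.20 under the other scalings and background correction and −0.10 with no filter on dim probes. With basal keratinocyte scaling the same median was 0.22, above 0, and that of all genes 0.42. Below 0 lay 30 of 34 members (88.2%), where 61.8% of all genes lay. No member was 1.5-fold lower, a size that 6.02% of all genes reached, and Tpx2 and Bub1b (5.88%) were 1.5-fold higher, against 4.98%. Bub1b and Kif23 were not well above background without calcium, so they could count only as higher. Lower by at least 0.32 log2 were 10 members, and 19.3% of all genes. Birc5 (−0.48), Cdk1 and Cenpa (−0.47 each) and Gins1 (−0.46) were the lowest. Of 32 members well above background on both arrays, 5 differed by more than 2 scanner errors (15.6%, against 14.4% of all genes). These were Gins1, Rrm2, Cdk1 and Birc5, which were lower, and Tpx2, which was higher.

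In Pla2g2f-/- cells the members as a group did not share that lower level with calcium. Their median log2 difference was 0.01 over 36 members, against −0.03 for all 21427 genes compared, a distance of 0.04 (0.03 or 0.04 under each scaling, and −0.03 with no filter on dim probes). Above 0 lay 20 of 36 members (55.6%), where 45.1% of all genes lay. At least 1.5-fold higher were 4 members (11.1%), Ccna2, Mki67, Bub1b and Cdc25c, against 7.71% of all genes. Cdc25c was well above background only with calcium and so could count only as higher. Of 35 members well above background on both arrays, 3 (8.57%) were 1.5-fold higher, against 5.40% of all such genes. No member was 1.5-fold lower, against 2.29% of all genes compared. The count of 4 became 2 with quantile scaling, 0 with normexp background correction and 20 with basal keratinocyte scaling.

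**Figure D3:**
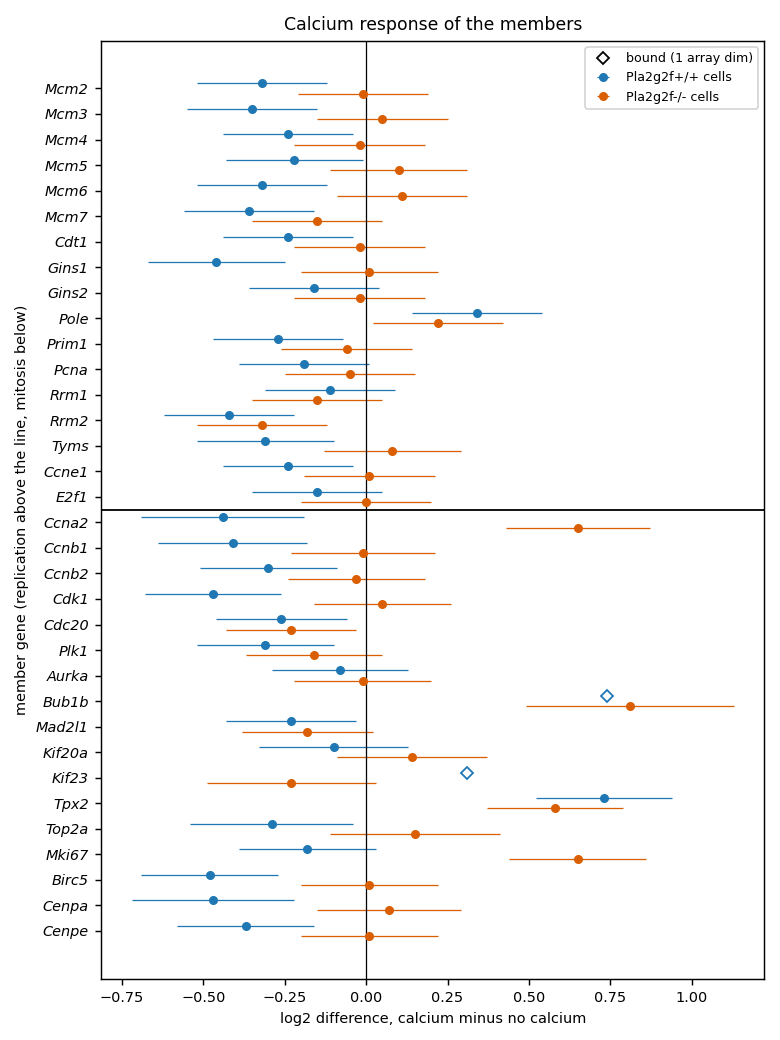
Log2 difference between calcium-treated and untreated cells (horizontal axis) for each member compared in both genotypes, blue in Pla2g2f+/+ and orange in Pla2g2f-/- cells. Bars are the scanner software's error of a single pair of arrays and not a replicate error, and open diamonds are bounds. Most blue points lie left of the orange ones, with the widest gaps for Ccna2 (−0.44 and 0.65) and Mki67 (−0.18 and 0.65). Basal keratinocyte scaling would move all blue points by 0.49 and all orange points by 0.58 to the right.

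Without calcium, many members were lower in Pla2g2f-/- than in Pla2g2f+/+ cells, and so were many other genes. The median log2 difference was −0.32 over 35 members, against −0.18 for all 21345 genes compared, a distance of −0.14 that was −0.13 to −0.20 under the other scalings and background correction and −0.07 with no filter. With basal keratinocyte scaling the medians were 0.01 and 0.15. Below 0 lay 26 of 35 members (74.3%), where 67.7% of all genes lay, a share close to the background. Bub1b, Kif23 and Nusap1 were not well above background in untreated Pla2g2f+/+ cells and could not count as below 0. Of 32 members well above background on both arrays, 26 lay below 0, with a median of −0.37 against −0.18 for all such genes. At least 1.5-fold lower were 12 members (34.3%), against 16.1% of all genes. They were Mcm2, Mcm4, Mcm5, Cdt1, Gins2, Prim1 and Rrm2 of replication and Ccnb2, Aurka, Mad2l1, Top2a and Cenpe of mitosis, each by its brightest probe. One of the other probes of Mad2l1 went the opposite way. Kif23 was at least 1.5-fold higher, a size reached by 8.75% of all genes, but was not well above background in Pla2g2f+/+ cells and could count only as higher. Together 13 members were 1.5-fold apart in either direction, 8 with normexp background correction and 2 with basal keratinocyte scaling.

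With calcium, the genotype difference of the members was mixed. The median log2 difference was −0.07 over 36 members, against −0.16 for all 21563 genes compared, and the distance of 0.09 was −0.04 when a gene was read as the mean of its probes. Below 0 lay 19 of 36 members (52.8%), where 63.0% of all genes lay. Cdc25c and Nusap1 were not well above background in calcium-treated Pla2g2f+/+ cells and could count only as above 0. Of 34 members well above background on both arrays, 19 lay below 0. Their median was −0.12, a distance of 0.05 from that of all such genes. Against the median gene, 17 of the 36 members lay below and 19 above, so members were not set apart from it. Ccna2, Mki67, Cenpa and Kif23, all of mitosis, were at least 1.5-fold higher in Pla2g2f-/- cells (11.1% of members, against 12.0% of all genes), and Aurka was at least 1.5-fold lower (2.78%, against 12.4%). These shares of 1.5-fold differences were at or under those of all genes. The 5 members became 1 with normexp background correction, 8 with no filter and 13 with basal keratinocyte scaling, under which the median was 0.36.

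**Figure D4:**
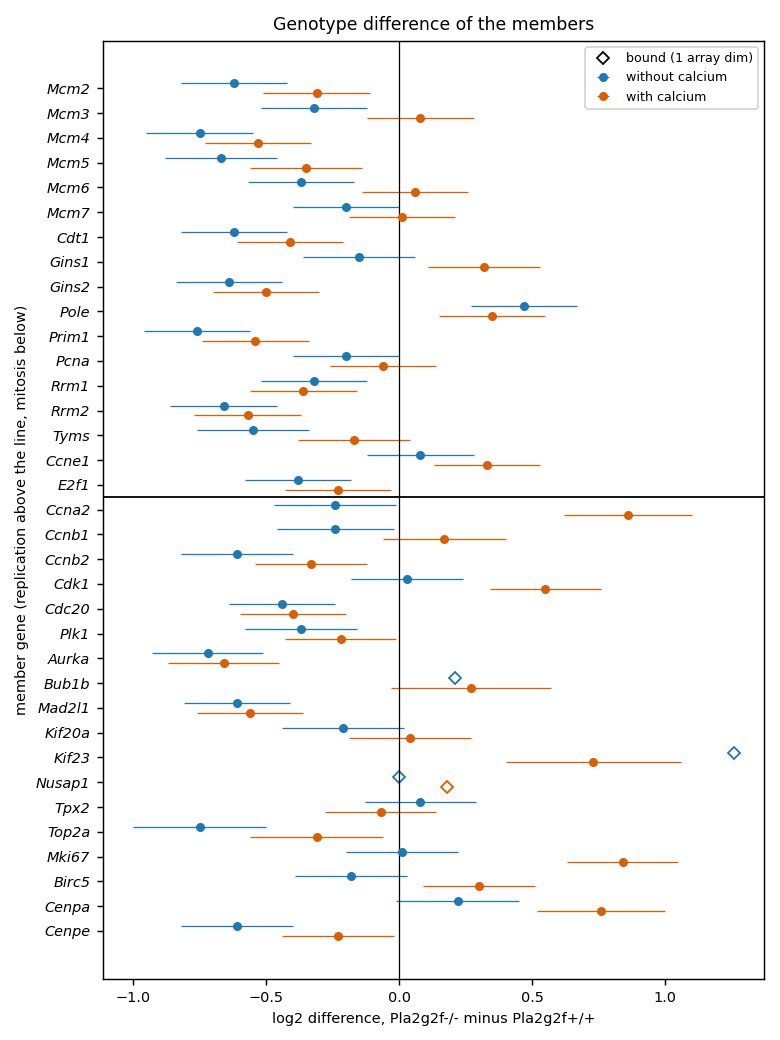
Log2 difference between Pla2g2f-/- and Pla2g2f+/+ cells (horizontal axis) for each member compared under both conditions, blue without and orange with calcium. Bars are the scanner software's error and open diamonds are bounds. Without calcium 12 of 35 members lie at or past 1.5-fold lower, and with calcium Ccna2, Mki67, Cenpa and Kif23 lie at or past 1.5-fold higher, while basal keratinocyte scaling would move blue points by 0.33 and orange points by 0.43 to the right.

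The difference between the 2 calcium responses, that of Pla2g2f-/- minus that of Pla2g2f+/+ cells, was above 0 for 29 of the 32 members measured on all arrays (90.6%), where 53.3% of all 19225 genes were above 0. Its median was 0.24 log2 (1.18-fold), against 0.02 for all genes, and the distance of 0.23 was 0.19 to 0.23 under every scaling, filter and probe rule tried. Basal keratinocyte scaling gave 30 of 32 above 0, and quantile scaling 27. The 3 members below 0 were Pole, Rrm1 and Tpx2. Single members were small against the scanner error: 14 of 32 (43.8%) exceeded it, against 24.0% of all genes, and 2 of 32, Ccna2 and Mki67, exceeded it by 2 times (6.25%, against 6.44%). At 1.5-fold these 2 members made up 6.25%, against 7.11% of all genes. A small difference was thus spread over most members, and large single differences were not more frequent among members than among all genes. Both responses enter this value from the same 4 arrays.

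Dim genes had a higher response difference than bright ones over the whole array, so members were set beside genes of the same signal. Among genes with a mean signal at or above the 75th percentile the median was 0.21 for 9 members and −0.05 for all 8072 genes. Among those with a mean log2 level of −3 to 0 relative to it the median was 0.22 for 17 members and 0.04 for all 5521 genes. Below −3 it was 0.42 for 6 members and 0.21 for all 5632 genes. Members stood above the genes of their own signal range in each of the 3 ranges.

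Some markers of other cells moved with genotype and with this difference. Summed over 9 fibroblast markers, the signal relative to the 75th percentile was 119, 102, 181 and 194 on the arrays in the usual order, and the response difference was above 0 for 9 of 9 with a median of 0.65. Over 13 markers of macrophages and Langerhans cells the sums were 5.71, 4.61, 21.5 and 32.2, with 10 of 11 response differences above 0 and a median of 0.94. The genotype difference of these markers was above 0 for 10 of 12 without and 9 of 11 with calcium, and H2-Ab1 stood at −0.72 in both. Mast cell markers summed to 1.52, 1.69, 11.4 and 11.4 and adipocyte markers to 57.4, 37.5, 180 and 145. Their response differences were above 0 for 5 of 8 mast cell markers (median 0.57) and 8 of 8 adipocyte markers (median 0.36). Basal keratinocyte markers were below 0 for 11 of 13, with a median of −0.08. Of the defining markers, Cd207 of Langerhans cells, Ms4a2 of mast cells and Lep of adipocytes were not well above background on any array. Markers of late differentiation had a median response difference of −1.08, their calcium responses being 3.95 in Pla2g2f+/+ and 2.37 in Pla2g2f-/- cells. The part of these cells in the members' values was not tested. In such bulk RNA fewer dividing cells and less RNA per dividing cell cannot be told apart.

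The helicase subunits and the loading factor Cdt1 had similar calcium responses to each other within each genotype. Mcm2 gave scaled signals of 107%, 85.5%, 69.6% and 69.0%, highest in untreated Pla2g2f+/+ cells and equal within the scanner error on the 2 Pla2g2f-/- arrays. Mcm4 (323%, 274%, 192% and 189%) and Cdt1, the loading factor (361%, 306%, 235% and 231%), had the same order. Mcm5 gave 23%, 19.8%, 14.5% and 15.5%. Its probe lies at chr8:77651350-77651410 (mm9). These 4 genes were 1.5-fold or more lower in untreated Pla2g2f-/- cells, with log2 differences of −0.62 for Mcm2, −0.75 for Mcm4, −0.67 for Mcm5 and −0.62 for Cdt1.

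Mcm3, Mcm6 and Mcm7 had smaller genotype differences. Mcm6 gave 386%, 310%, 299% and 323%, so that calcium-treated Pla2g2f+/+ cells were level with both Pla2g2f-/- arrays, and its response difference was 0.43. Mcm7 gave 226%, 176%, 197% and 177%, with calcium responses of −0.36 and −0.15. Mcm3 gave 207%, 163%, 166% and 172%, with responses of −0.35 and 0.05 by this probe and −0.41 and 0.04 by a second one. For this group of 7 measured genes the calcium response ran from −0.36 to −0.22 in Pla2g2f+/+ and from −0.15 to 0.11 in Pla2g2f-/- cells. Its response differences, 0.21 to 0.43, all lay above 0 on the 75th percentile scale, where 53.3% of all genes lay.

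At the replication fork the members went different ways. Prim1, the catalytic primase subunit that lays down RNA primers, gave 122%, 101%, 72.4% and 69.6%, with the deepest genotype difference of all members without calcium (−0.76) and −0.54 with calcium. Gins2 of the helicase-activating GINS complex gave 61.1%, 54.5%, 39.2% and 38.6%, again lower on both Pla2g2f-/- arrays (−0.64 and −0.50). Gins1, of the same complex, gave 21.5%, 15.6%, 19.4% and 19.6%. Only its calcium-treated Pla2g2f+/+ array stood apart, and its response difference of 0.47 was the largest among replication members. Pcna, the sliding clamp that tethers polymerase to DNA, gave 884%, 776%, 767% and 743%, and none of its 4 log2 differences went beyond −0.20, the size of the scanner error.

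Pole, the catalytic subunit of the leading-strand polymerase, was the exception among replication members. Its brightest probe gave 41.1%, 52.0%, 57.0% and 66.5%, lowest in untreated Pla2g2f+/+ cells, with genotype differences of 0.47 and 0.35. A second probe at chr5:110720154-110720213 (mm9), near 3.47%, 4.71%, 1.51% and 2.44%, gave −1.20 as a bound and −0.95 for the same comparisons. The probes of Pole therefore disagree on the direction of the genotype difference, while both were higher with calcium in Pla2g2f+/+ cells (0.34 and 0.44).

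Of the enzymes that supply deoxynucleotides, Rrm2 and Rrm1 were lower in Pla2g2f-/- cells under both conditions on the 75th percentile scale. Tyms was lower beyond the scanner error only without calcium. The median gene stood at −0.18 without and −0.16 with calcium. Rrm2, the regulated subunit of ribonucleotide reductase, gave 367%, 275%, 232% and 186%, lower with calcium in both genotypes (−0.42 and −0.32) and lower in Pla2g2f-/- cells by −0.66 and −0.57. Rrm1, its constant partner, gave 126%, 117%, 101% and 91.1%, differences of at most −0.36. Tyms, thymidylate synthase, gave 12.8%, 10.4%, 8.76% and 9.23%, and its response difference was 0.39. Its genotype difference was −0.55 without calcium and −0.17 with calcium, the latter inside the scanner error of 0.21. Basal keratinocyte scaling adds 0.33 and 0.43 to the genotype differences, which puts Rrm1 under both conditions and Tyms with calcium above 0.

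Of the G1 to S regulators, E2f1, the activating transcription factor, gave 80.2%, 72.3%, 61.5% and 61.6%, with a genotype difference of −0.38 without and −0.23 with calcium. Ccne1, cyclin E1, gave 142%, 120%, 150% and 151%, lowest in calcium-treated Pla2g2f+/+ cells, and its 2 probes went the same way in each comparison. The signal of its partner gene Ccne2 was 0.370%, 0.324%, 0.262% and 0.297%, not well above background.

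Among mitotic cyclins and kinases Ccna2, cyclin A2 of S and G2 phase, differed most. It gave 6.04%, 4.44%, 5.11% and 8.04%. The calcium-treated array was the lowest of the 4 in Pla2g2f+/+ and the highest in Pla2g2f-/- cells. The log2 responses were −0.44 and 0.65 and their difference 1.1, the only response difference of a member at 2-fold, a size reached by 1.92% of all genes in that direction. Its single probe lies at chr3:36463978-36464037 (mm9). Cdk1, the kinase that cyclins A and B activate, gave 13.3%, 9.61%, 13.6% and 14.1%, with calcium-treated Pla2g2f+/+ cells below the other 3 arrays, responses of −0.47 and 0.05 and a genotype difference of 0.55 with calcium. Its response difference was 0.52 by this probe. Averaged with a dim probe that was well above background on only 1 array, it was −0.44, and the genotype difference with calcium was −0.10. The remaining probe was not well above background on any array and was left out. Ccnb1 gave 7.26%, 5.46%, 6.16% and 6.13%, with responses of −0.41 and −0.01. A dimmer probe of Ccnb1, well above background only on the 2 Pla2g2f+/+ arrays, gave −0.02 for the response there.

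The remaining kinases and activators of this group did not follow Ccna2. Aurka, the centrosome kinase, gave 26.4%, 25%, 16% and 15.9%, with calcium responses inside the scanner error, and was lower in Pla2g2f-/- cells by −0.72 and −0.66. Cdc20, the activator of the anaphase-promoting complex, gave 42.8%, 35.7%, 31.6% and 27%, with a response difference of only 0.04. Ccnb2, cyclin B2, gave 28.2%, 22.9%, 18.6% and 18.2%, and Plk1 gave 25.7%, 20.8%, 19.9% and 17.9%. Cdc25c, the phosphatase that activates Cdk1, was well above background only in calcium-treated Pla2g2f-/- cells, at 1.71%, which made its response there at least 1.59-fold. Aurkb, the kinase of the chromosomal passenger complex, stayed between 0.222% and 0.308%.

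Chromosome and centromere genes had the largest response differences as a group, 0.38 to 0.83 for all 5. Mki67, which encodes the proliferation antigen Ki-67, gave 11.6%, 10.3%, 11.7% and 18.4%. Calcium-treated Pla2g2f-/- cells stood above the other 3 arrays, which lay within the scanner error of each other. Its log2 responses were −0.18 and 0.65. A second probe at chr7:142884764-142884823 (mm9) gave 8.81%, 6.98%, 7.63% and 12.9%, with responses of −0.34 and 0.76 and a difference of 1.09 where the first probe had 0.83. Cenpa, the centromere histone, gave 5.44%, 3.92%, 6.35% and 6.66%, with a genotype difference of 0.76 with calcium.

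Birc5, the passenger protein survivin, gave 26.8%, 19.2%, 23.6% and 23.7%, with only calcium-treated Pla2g2f+/+ cells lower. A dimmer probe of Birc5 went the same way in each comparison with larger bounds (−1.35 and 0.78 for the 2 responses). Cenpe, a kinetochore motor, gave 26.5%, 20.5%, 17.4% and 17.5%. Top2a gave 6.40%, 5.23%, 3.80% and 4.22%, a genotype difference of −0.75 without and −0.31 with calcium. Top2a and Cenpe, like Mcm2 and Mcm4, were lower on both Pla2g2f-/- arrays than on both Pla2g2f+/+ arrays, and Mki67 and Cenpa were not.

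The spindle checkpoint was poorly covered, since Bub1 and Ttk were not well above background on any array. Mad2l1 gave 81.7%, 69.8%, 53.5% and 47.3% with its brightest probe, lower in Pla2g2f-/- cells by −0.61 and −0.56. Its other 2 probes gave 4.89%, 4.02%, 2.97% and 4.80% and 4.44%, 5.2%, 7.14% and 2.92%. Across the 3 probes the response of Pla2g2f-/- cells was −0.18, 0.69 and −1.29. The genotype difference without calcium ran from −0.72 to 0.69 and the response difference from −1.52 to 0.98, so no direction can be given for these 3 values. Bub1b, a checkpoint kinase, gave 1.33%, 2.5%, 1.72% and 3.01%, the first not well above background. It was higher with calcium in both genotypes, by at least 1.67-fold in Pla2g2f+/+ cells and by 0.81 log2 in Pla2g2f-/- cells.

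Spindle and cytokinesis genes were dim or had probes that disagreed. Tpx2, a spindle assembly factor, gave 15.0%, 24.9%, 15.9% and 23.7% with its brightest probe, higher with calcium in both genotypes (0.73 and 0.58). Its second probe gave 1.90%, 1.20%, 2.46% and 1.39%, lower with calcium, by −0.49 as a bound and −0.83. Kif23, a motor of the midbody, gave 1.59%, 1.97%, 3.82% and 3.26%, the first not well above background, and was at least 2.40-fold higher in untreated Pla2g2f-/- cells and 0.73 log2 higher in treated ones. Kif20a, a cytokinesis motor, gave 6.62%, 6.17%, 5.73% and 6.32%, all within the scanner error. Nusap1, a microtubule-binding protein, lay between 1.45% and 1.66%, near the detection limit, and Kif11, the spindle-pole motor, between 0.227% and 0.474%, under it.

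Replication members had lower median genotype differences than mitosis members, by an amount that changed with signal range and background correction. Other genes of the same pathways did not share this order without calcium. The median log2 calcium response was −0.24 for 17 replication and −0.29 for 17 mitosis members in Pla2g2f+/+ cells, and −0.01 and 0.05 in Pla2g2f-/- cells. Without calcium the genotype difference was −0.38 for replication and −0.22 for mitosis members, a gap of −0.16 that was −0.18 with normexp background correction and −0.01 with no filter. With calcium it was −0.23 and 0.17, a gap of −0.40 that was −0.18 with normexp background correction and −0.27 for genes well above background on both arrays. Mitosis members were dimmer, and in the range from −3 to 0 log2 the medians of 7 replication and 10 mitosis members were −0.62 and −0.40 without calcium and −0.31 and −0.22 with calcium. The response difference was 0.22 for replication and 0.38 for mitosis members, a gap of −0.16 that was −0.02 with quantile scaling. Other genes of the same pathways had the reverse order without calcium, with median genotype differences of −0.25 for replication and −0.38 for mitosis genes. With calcium these medians were −0.17 and −0.13, and the response differences 0.13 and 0.10.

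**Figure D5:**
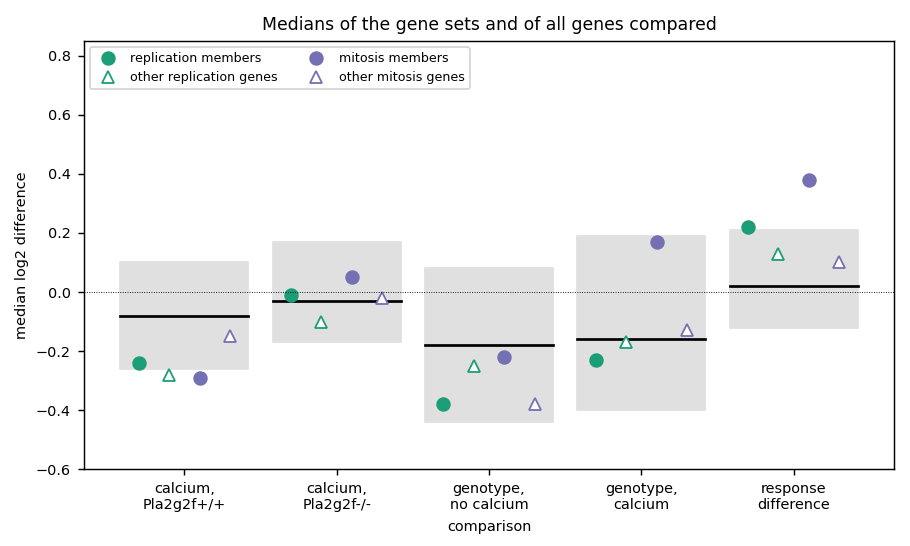
Median log2 difference in each of the 5 comparisons for replication members, mitosis members and the other genes of the same pathways (open triangles). Black lines are the median and grey boxes the middle 50% of all genes compared on the 75th percentile scale. In Pla2g2f+/+ cells with calcium the replication and mitosis members stand at −0.24 and −0.29 below the median gene at −0.08, while basal keratinocyte scaling would move this column up by 0.49. In the response difference they stand at 0.22 and 0.38 against 0.02.

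Members were also sorted by promoter letters instead of by role. The widest gap was in the genotype difference with calcium, with a median of 0.01 for 11 members with E2F letters and −0.22 for 17 without. In Pla2g2f+/+ cells the median calcium response was −0.32 for 11 members with E2F letters and −0.28 for 16 without, and −0.30 for 12 with CHR letters and −0.27 for 15 without. The median response difference was 0.33 with and 0.26 without E2F letters, and 0.29 with and 0.24 without CHR letters.

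Among 114 other genes of replication and mitosis, 92 were well above background on all 4 arrays and 13 on none. Of 44 other replication genes compared, 40 (90.9%) were below 0 with calcium in Pla2g2f+/+ cells, where 61.8% of all genes lay, with a median of −0.28. In Pla2g2f-/- cells 35 of 45 (77.8%) were below 0, where 54.6% of all genes lay, with a median of −0.10. Their response difference was above 0 for 36 of 44 (81.8%), against 53.3% of all genes, with a median of 0.13. The 68 other mitosis genes moved less, with a median of −0.15 over 52 compared in Pla2g2f+/+ cells, −0.02 over 55 in Pla2g2f-/- cells and a response difference of 0.10. In basal keratinocyte scaling the calcium medians of these lists lie above 0, since 0.49 and 0.58 are added to them.

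Most of these genes stayed under 2-fold. In untreated Pla2g2f-/- cells 8 of 98 compared were at least 2-fold lower, a larger share than the 4.34% of all genes. Timeless, of the fork protection complex, gave 64.5%, 33.0%, 80.5% and 76.4%, with calcium-treated Pla2g2f+/+ cells alone on the low side, a response of −0.97 there and a genotype difference of 1.21 with calcium. Orc1, the largest origin recognition subunit, gave 3.33%, 2.43%, 1.36% and 1.41%, a genotype difference of −1.29 without calcium. Other mitosis genes were at least 1.5-fold lower in untreated Pla2g2f-/- cells in 16 of 53 cases (30.2%, against 16.1% of all genes). At least 2-fold lower were 7 of these 53, again a larger share than the 4.34% of all genes. Spc24, a kinetochore subunit, gave 23.9%, 34.3%, 4.49% and 6.17%, lower in Pla2g2f-/- cells by −2.41 and −2.47. Ube2c, the ubiquitin-conjugating enzyme of anaphase, gave 31.8%, 47.2%, 13.1% and 13.4% (−1.28 and −1.82), and Aspm, a spindle pole protein, 4.11%, 3.84%, 1.64% and 2.27% (−1.33 without calcium). Ckap2l and Cenpm were lower without calcium by bounds of −1.46 and −1.16, and Troap was higher with calcium in Pla2g2f-/- cells by a bound of 1.1.

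Few inhibitors of cyclin-dependent kinases and other E2F factors were past 2-fold between genotypes. Of 10 inhibitors and pocket proteins, 1 was 2-fold higher and 0 lower in Pla2g2f-/- cells under each condition. Of 19 other E2F factors and G1 cyclins, 1 was 2-fold higher and 1 lower under each condition. Counts this small do not set these lists apart from all genes. Of all genes 4.65% were 2-fold higher and 4.34% lower in Pla2g2f-/- cells without calcium, and 6.55% and 3.05% with calcium. Cdkn2c, an inhibitor of Cdk4 and Cdk6, gave 11.4%, 15.2%, 40.6% and 33.9%, higher in Pla2g2f-/- cells by 1.84 and 1.16 log2. E2f2, an activating E2F, gave 23.1%, 26.9%, 79.5% and 123%, higher by 1.79 and 2.20. E2f7, a repressing E2F, gave 39.8%, 23.5%, 9.47% and 7.35%, lower by −2.07 and −1.67, while its second probe gave −0.60 and −0.55, short of 2-fold. E2f8, the close relative of E2f7, gave 4.27%, 5.07%, 2.71% and 5.81%, with a response of 1.1 in Pla2g2f-/- cells. Over all 10 inhibitors and pocket proteins the median calcium response was 0.09 in Pla2g2f+/+ and −0.05 in Pla2g2f-/- cells.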

How the data were processed

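Total RNA of the 4 keratinocyte groups (200 ng each, labelled with Cy3) was measured on Agilent one-colour arrays. Whether the 2 groups of a genotype came from the same animals is not stated. Each deposited scanner file holds an intensity per spot, background-subtracted by Agilent Feature Extraction 11.5.1.1 within its array and not scaled to the other arrays, per the file headers. The authors also deposited a table of values, each a ratio of a signal to a constant of its array, from which it differed by at most 2.3e-07 in relative terms. Probe positions are mm9, per the file headers.

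Spots marked as outliers (105 to 116 per array) and controls were dropped, repeat spots averaged, and log2 intensity was taken relative to the 75th percentile of each array (2637.7, 2741.2, 2891.9 and 3304.1 intensity units, +/+ cells without and with calcium first). Of 39429 probes, 27508 were named through their accession and 11921 kept the file's name. A gene was read from the probe with the highest mean over the 4 arrays. A comparison needed a signal well above background on 1 of its 2 arrays, and a dim array gave a bound against the higher of the gene's own signal there and the lowest signal well above background. Response differences needed all 4 arrays. With 1 array per group no test was run, and genes were counted at 1.5-fold. The number of arrays limits the precision.

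The members and gene lists were chosen with earlier results of these data known. Named were all members and, of the other pathway lists, at most 5 genes per list and comparison past 2-fold. Other probes are given where they oppose the brightest one past 0.32 log2, and in a few other cases. Promoters came from RefSeq (GRCm38.p6). Alternatives were quantile, median and basal keratinocyte scaling, normexp with an offset of 50, the value table, the mean of probes, 2 filters, a threshold of 0.32 log2 in place of 1.5-fold and a window of 150 bases. For the mean of probes, those not well above background on any array were left out if the gene had another that was. The steps were tested on simulated data. Software was Python 3.11.15, numpy 2.4.6, pandas 2.3.3, matplotlib 3.10.9, and R 4.3.3 with limma 3.58.1.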

Additional observations from a re-analysis of the deposited data

Results flagged for a closer look

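Ccna2 had log2 calcium responses of opposite direction in the 2 genotypes, −0.44 in Pla2g2f+/+ and 0.65 in Pla2g2f-/- cells, each larger than the scanner error of its pair of arrays. The opposite direction depends on the scaling. Basal keratinocyte scaling adds 0.49 and 0.58 to these responses, and all 34 members compared in Pla2g2f+/+ cells then lie above 0. With normexp background correction no member, Ccna2 included, was 1.5-fold apart in Pla2g2f-/- cells. With 1 array per group the difference between the responses was not tested, and Ccna2 has a single probe on the array.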

How the results depend on the processing

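No paired analysis was possible because each group is 1 array. Under the alternatives 142 recomputed summary values stayed within the spread of repeat spots (counts within 1.5 times), and 26 moved, as given here. The cause was not tested. Of single members' values 271 moved, and 96 changed sign, 69 of them with basal keratinocyte scaling. Basal keratinocyte scaling changed the counts of members 1.5-fold apart from 2, 4, 13, 5 and 2 to 4, 20, 2, 13 and 4 (calcium in +/+ and -/- cells, genotype without and with calcium, response difference). Normexp changed the first 4 to 1, 0, 8 and 1, and the gap between replication and mitosis members to −0.18 with calcium and −0.07 in the response difference. Quantile scaling gave 2 members in -/- cells and gaps of −0.27 (genotype without calcium) and −0.02 (response difference). The mean of probes turned the genotype distance with calcium to −0.04 and gave a gap of −0.06 in the response difference. Genes well above background on both arrays gave 1 member in +/+ cells and a gap of −0.27 with calcium. With no filter the +/+ calcium distance was −0.10, the counts with calcium and for the response difference 8 and 5, and the gap without calcium −0.01. Counted from 0.32 log2 they were 13 in +/+ cells, 20 with calcium and 13 for the response difference. In the nearest 150 bases 7 members in place of 12 held E2F letters. Median scaling and the authors' value table moved none of these values. Signal over background limits Cdc25c, Nusap1, Bub1b and Kif23 to bounds in some comparisons and leaves 6 members without a comparison.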
